A study of Mus musculus with 9 samples.

Results

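The 10 genes described here encode the glucose transporter Slc2a1 and 9 enzymes of glycolysis: Hk2, Gpi1, Pfkl, Aldoa, Tpi1, Pgk1, Pgam1, Eno1 and Ldha. They were found by gene name among the non-control probes of a 2-colour Agilent mouse array, where 14 of 41174 probes belong to them. All 10 genes passed the filter on dim probes and are among the 14262 genes tested. RNA came from 3 female BALB/c athymic mice, which lack a thymus, numbered 832, 833 and 834. All were inoculated under the skin with Hepa1-6, a mouse hepatoma cell line. The 3 groups, each with 1 array per mouse, were the day 10 TIC fraction (ground tumour tissue, enriched for tumour-infiltrating inflammatory cells), day 10 blood, and day 0 blood, drawn before inoculation. On every array the sample was labelled with Cy5 and set against a Cy3-labelled common reference, RNA from blood of untreated C57Bl/6 females, and values are given as normalized log2 ratios of sample to reference.

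Glycolysis turns glucose into pyruvate in the cytosol and yields ATP without oxygen. Slc2a1 (GLUT1) carries glucose into the cell, and Hk2 traps it as glucose 6-phosphate. Gpi1, Pfkl and Aldoa prepare and split the sugar, and Tpi1 interconverts the 2 triose phosphates. Pgk1, Pgam1 and Eno1 take the product on towards pyruvate, which Ldha reduces to lactate. Several of these genes are textbook targets of the hypoxia-inducible factor HIF-1, and proliferating, activated and tumour cells commonly express them at high levels. Mature red cells have no mitochondria and live on glycolysis.

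HIF-1 binds DNA at sites that often hold the core ACGTG, so the promoters of the 10 genes were searched for these letters on both strands. Other forms of the site were not searched. The windows run from 250 bases before to 50 bases after each annotated start (RefSeq, build GRCm38.p6), and all 10 genes had at least 1. The letters occurred in the windows of 6 genes: Slc2a1, Hk2, Aldoa, Pgk1, Pgam1 and Ldha. Of all 27025 genes with such a window, 21.8% held them. A match describes letters only, not a site in use. The stretches below show the match nearest to the start in each of the 6 genes, with every ACGTG or its complement CACGT in capitals. Tpi1, which rose most in the TIC fraction, is shown beside them because its window has no match.
Slc2a1, chr4:119108679-119108743, plus strand: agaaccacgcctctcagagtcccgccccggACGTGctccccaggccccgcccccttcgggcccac
Hk2, chr6:82774472-82774536, minus strand: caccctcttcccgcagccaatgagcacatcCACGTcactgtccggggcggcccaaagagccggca
Aldoa, chr7:126799346-126799410, minus strand: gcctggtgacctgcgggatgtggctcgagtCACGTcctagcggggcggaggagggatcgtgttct
Pgk1, chrX:106186939-106187003, plus strand: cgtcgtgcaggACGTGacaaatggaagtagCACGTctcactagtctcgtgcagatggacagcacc
Pgam1, chr19:41911727-41911791, plus strand: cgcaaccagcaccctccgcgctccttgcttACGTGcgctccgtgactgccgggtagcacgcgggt
Ldha, chr7:46845740-46845803, plus strand: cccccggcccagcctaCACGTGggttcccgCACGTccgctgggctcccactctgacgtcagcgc
Tpi1, chr6:124814159-124814223, minus strand: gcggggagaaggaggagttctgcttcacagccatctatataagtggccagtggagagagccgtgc

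The Ldha window held the palindrome CACGTG at 2 places, each of which reads as ACGTG on both strands and is also the E-box that Myc and related factors bind. Aldoa has 3 annotated windows, of which 2 share the stretch shown. No ACGTG was found on either strand in the windows of Gpi1, Pfkl, Tpi1 and Eno1, which does not exclude other forms of the site.

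The arrays differed in brightness. The 95th percentile of background-subtracted Cy5 intensity over spots was 1036 to 4633 on TIC arrays, 31.3 to 58.1 on day 10 blood arrays and 70.4 to 199 on day 0 blood arrays. In the Cy3 channel the same percentile lay between 376 and 490 on all 9 arrays. Gene by gene, the TIC arrays of mice 832 and 834 correlated at 0.99, while mouse 833 correlated with them at 0.88 and 0.90. TIC and blood RNA were extracted with different kits, so kit and tissue cannot be told apart. The labels name the TIC samples' source as blood but their tissue as tumour-infiltrating cells. Of 9 measured erythroid markers, all 9 were lower in the TIC fraction than in day 10 blood, with a median log2 difference of -6.50. Their summed processed Cy5 signal was 16923 to 21084 on TIC arrays, 1456437 to 2238236 on day 10 blood arrays and 2224316 to 4199816 on day 0 blood arrays. Epb42, a red cell membrane protein, was above background on no TIC array. Of 7 macrophage markers 4 were higher in the TIC fraction and none lower, and of 8 hepatocyte and hepatoma markers 6 were higher and 2 lower. All 6 B cell, all 6 T cell and all 6 platelet markers measured were lower, as were 5 of 6 neutrophil markers. Of 5 fibroblast markers 2 were higher and 3 lower. The fibroblast list summed to 157061 to 322569 on TIC arrays, 442 to 1405 on day 10 blood arrays and 478 to 1095 on day 0 blood arrays. The macrophage list summed to 234691, 36351 and 149093 on the TIC arrays of mice 832, 833 and 834. On day 10 blood arrays it summed to 3903 to 5661, and on day 0 blood arrays to 5720 to 8555. Of 4 endothelial markers 2 were lower, and of 2 muscle markers 1 was, with none higher. Of all genes, 34.4% were higher and 33.2% lower. The hepatoma list summed to 199805 to 318759 on TIC arrays, 3384 to 4749 on day 10 blood arrays and 2109 to 5823 on day 0 blood arrays. Afp, a fetal liver and hepatoma protein, differed by 5.35 ± 0.28 (SE) between the TIC fraction and day 10 blood. It had the largest difference of that list, whose median was 1.18 and whose lowest member differed by -3.51. Every group is a mixture of cells, so fewer cells of a type and less RNA per cell cannot be told apart, and the part of each cell type in the values below was not tested.

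**Figure D1:**
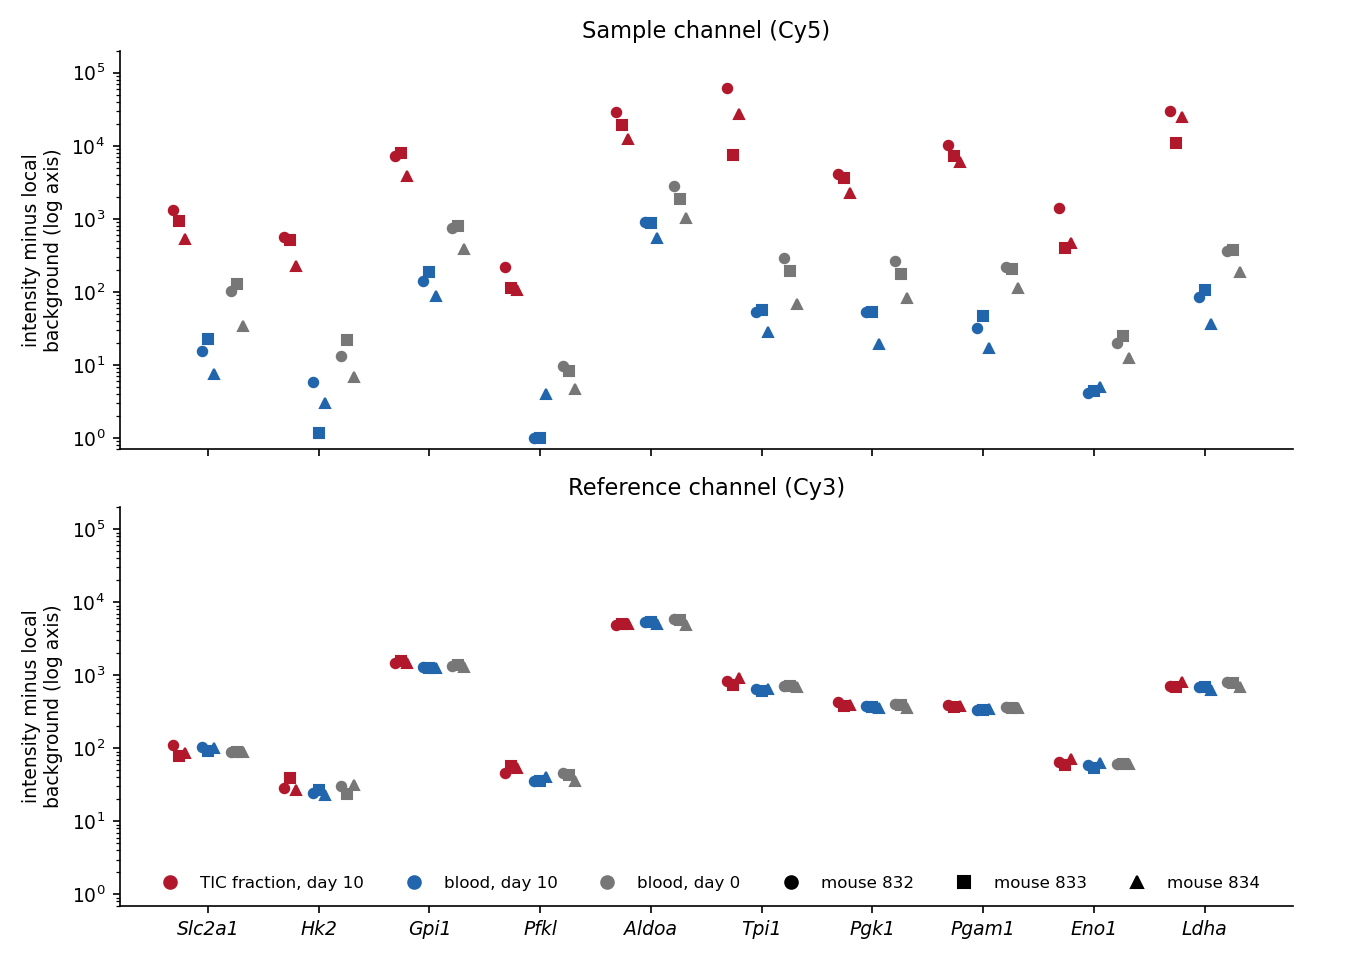
Background-subtracted intensity of the 10 genes on each of the 9 arrays, sample channel above and reference channel below (log axes, colours for groups, marker shapes for mice; values under 1 are drawn at 1). All 3 TIC arrays lie above all blood arrays for every gene in the sample channel before normalization, while the reference channel stays within a narrow band, such as 4868 to 5935 for Aldoa.

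Before any normalization, all 10 genes were brighter on each TIC array than on any blood array. Ldha, which makes lactate, had background-subtracted Cy5 intensities of 29949, 10800 and 24734 on the TIC arrays, against 83.7, 107 and 36.7 on the day 10 blood arrays and 367, 372 and 186 on the day 0 blood arrays (mice 832, 833 and 834). Its reference intensity stayed between 620 and 819. Aldoa, the brightest of the 10 genes in the reference channel, had 29186, 19249 and 12362 in the TIC fraction, 894, 864 and 550 in day 10 blood and 2853, 1858 and 1040 in day 0 blood. The TIC arrays were brighter as a whole, and the loess normalization used below sets each spot against spots of like intensity on its own array. A higher or lower value below therefore means higher or lower than other transcripts of like brightness.

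In the TIC fraction against day 10 blood, 6 of the 10 genes rose, 1 fell and 3 did not pass the test. Tpi1, Ldha, Pgam1, Hk2, Eno1 and Slc2a1 were higher, by 1.73-fold to 6.14-fold on the fitted scale, and Aldoa was lower. Hk2 passed the filter on dim probes only through the TIC fraction, so its call is no support of its own. Gpi1, Pfkl and Pgk1 did not pass. The median log2 difference of the 10 genes was 0.89, against 0.07 over all 14262 genes. Among the 3911 genes with probes above background on all 9 arrays, the median was -0.99. Of the 10 genes 7 were among these, with a median of 0.79. A gene counts as called where limma's p, adjusted by the Benjamini-Hochberg method over all genes tested, was under 0.05. Calls were common in this comparison, with 67.6% of all genes called, 34.4% higher and 33.2% lower. The 3 TIC arrays lay above the 3 day 10 blood arrays without overlap for the same 6 genes, which 36.8% of all genes did too. None of the 10 lay wholly below, as 35% of all genes did.

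**Figure D2:**
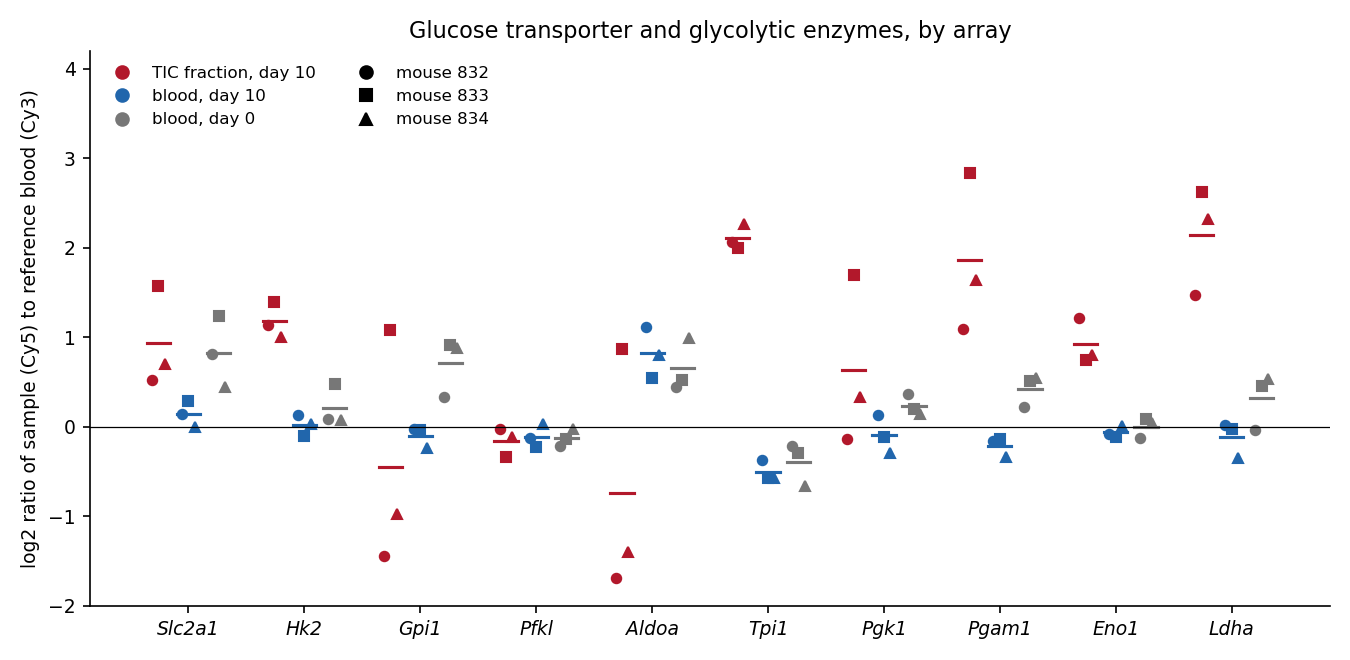
Log2 ratio of sample to reference blood for each gene on each of the 9 arrays after normalization (colours for groups, marker shapes for mice, horizontal lines for group means). TIC arrays stand above both bloods for Hk2, Tpi1, Pgam1, Eno1 and Ldha, and mouse 833 parts from the other TIC arrays for Gpi1, Aldoa and Pgk1.

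Glucose entry was measured by Slc2a1 and Hk2. Slc2a1 had log2 ratios of 0.52, 1.57 and 0.70 in the TIC fraction, 0.14, 0.29 and -0.01 in day 10 blood and 0.81, 1.23 and 0.44 in day 0 blood. The TIC arrays were all above the day 10 blood arrays, but they overlapped with day 0 blood. The difference from day 10 blood was 0.79 ± 0.29 (SE, adjusted p = 0.0381), and that from day 0 blood was 0.10 ± 0.29 (adjusted p = 0.769). Without the TIC array of mouse 833, Slc2a1 differed from day 10 blood by 0.47 with an adjusted p of 0.0649. Leaving out any 1 of the day 10 blood arrays also took the adjusted p above 0.05 (0.0625 to 0.107).

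Hk2, the hexokinase of muscle, fat and many tumours, had log2 ratios of 1.14, 1.39 and 1.0 in the TIC fraction, 0.13, -0.10 and 0.03 in day 10 blood and 0.09, 0.47 and 0.08 in day 0 blood. The TIC arrays stood clear of both bloods. No day 10 blood array had Hk2 well above background, and the gene met the filter of 3 arrays only through the TIC fraction, where it is high. Its log2 Cy5 value averaged 7.45 in the TIC fraction and 6.19 in day 10 blood. This value was taken after loess, with the mean intensity of both channels brought to a common distribution on all arrays. It is therefore not independent of the loess ratio. The ratio fit gave a difference of 1.16 ± 0.15 (adjusted p = 0.000193). Since Hk2 passed the filter only through its high group, its p-values are no support of their own. The day 10 signal has only an upper bound, so neither the Cy5 difference nor the ratio difference is an exact fold. Without swapped dyes the Cy5 means are open to dye bias. Against day 0 blood the log2 difference was 0.97 ± 0.15 (adjusted p = 0.00064).

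Gpi1, Pfkl and Aldoa make up the preparatory steps. Gpi1, glucose 6-phosphate isomerase, had log2 ratios of -1.44, 1.08 and -0.98 in the TIC fraction, -0.03, -0.04 and -0.24 in day 10 blood and 0.33, 0.92 and 0.88 in day 0 blood. Mouse 833 lay above the bloods' range and mice 832 and 834 below it. Gpi1 was printed as 10 spots on each array, and the SD among the usable spots of 1 array was 0.06 to 0.26. Spots of 1 array share its hybridization and its loess curve, so this SD does not measure error between arrays. Before normalization its Cy5 intensity was 7154, 7996 and 3807 on the TIC arrays of mice 832, 833 and 834. With all 3 TIC arrays the difference from day 10 blood was -0.35 ± 0.55 (adjusted p = 0.596). Without mouse 833 it was -1.11 (adjusted p = 0.000864). A second Gpi1 probe was too dim to be used. The probe used lies at chr7:33910936-33910995 on the minus strand (mm8).

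Aldoa, the aldolase of muscle and red cells, split in the same way. Its log2 ratios were -1.69, 0.86 and -1.40 in the TIC fraction, 1.12, 0.55 and 0.80 in day 10 blood and 0.45, 0.53 and 0.99 in day 0 blood. The groups overlapped through mouse 833. The difference from day 10 blood was -1.56 ± 0.58 (adjusted p = 0.0401), and with each mouse as a block the adjusted p was 0.0572. Against day 0 blood it was -1.40 ± 0.58 (adjusted p = 0.0619). Without the TIC array of mouse 833 these became -2.37 (adjusted p = 7.62e-06) and -2.20 (adjusted p = 1.44e-05). Leaving out either of the other TIC arrays, or any day 10 blood array, ended the call against day 10 blood (adjusted p 0.0659 to 0.132). A second Aldoa probe, which did not enter the fit, gave log2 ratios of -1.59, 1.19 and -0.92 in the TIC fraction, 0.96 and 0.35 in day 10 blood, where mouse 834 had no usable spot, and 0.90, 1.09 and 0.18 in day 0 blood. It showed the same split between mouse 833 and the other TIC arrays, but on the same arrays, so it is no separate repeat.

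Pfkl, the liver form of phosphofructokinase, stayed near 0 in the loess ratios. Its log2 ratios were -0.02, -0.34 and -0.11 in the TIC fraction, -0.13, -0.23 and 0.03 in day 10 blood and -0.21, -0.14 and -0.03 in day 0 blood. It was well above background on 3 TIC arrays, no day 10 blood array and 1 day 0 blood array, so the ratio fit, -0.05 ± 0.12 against day 10 blood, rests on dim spots. Pfkl was not called there (adjusted p = 0.74).

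Among the later steps Tpi1 differed most. Its probe lies at chr6:124776548-124776607 on the minus strand, in the coordinates of the files (build mm8). Tpi1, triose phosphate isomerase, had log2 ratios of 2.07, 2.0 and 2.26 in the TIC fraction, -0.37, -0.57 and -0.58 in day 10 blood and -0.22, -0.30 and -0.66 in day 0 blood. The 3 TIC arrays, with an SD of 0.14, lay far above both bloods, mouse 833 included. The difference was 2.62 ± 0.14 from day 10 blood (6.14-fold, adjusted p = 2.1e-06) and 2.50 ± 0.14 from day 0 blood (adjusted p = 3.79e-06). Of all genes tested, 98.6% had a smaller difference from day 10 blood.

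Pgk1, phosphoglycerate kinase, forms the first ATP of the pathway. Its log2 ratios were -0.13, 1.70 and 0.33 in the TIC fraction, 0.13, -0.11 and -0.30 in day 10 blood and 0.36, 0.19 and 0.14 in day 0 blood, again with mouse 833 above all other arrays. The difference from day 10 blood was 0.72 ± 0.40 (adjusted p = 0.135). It was 0.19 without the TIC array of mouse 833 and 1.11 (adjusted p = 0.0272) without that of mouse 832. A second Pgk1 probe gave 1.09 (adjusted p = 0.0625). Both Pgk1 probes list further accessions in the files, so their signal is not certain to be Pgk1 alone.

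Pgam1, phosphoglycerate mutase, had log2 ratios of 1.1, 2.83 and 1.64 in the TIC fraction, -0.16, -0.14 and -0.34 in day 10 blood and 0.22, 0.50 and 0.54 in day 0 blood. Mouse 833 was again the highest, yet all 3 TIC arrays exceeded every blood array. The difference was 2.07 ± 0.37 from day 10 blood (4.21-fold, adjusted p = 0.00122) and 1.43 ± 0.37 from day 0 blood (adjusted p = 0.00888). Without mouse 833's TIC array these were 1.58 and 0.94, both called.

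Eno1, enolase, had log2 ratios of 1.21, 0.75 and 0.80 in the TIC fraction, -0.09, -0.12 and 0.01 in day 10 blood and -0.13, 0.08 and 0.05 in day 0 blood. Here mouse 833 was not the highest TIC array, and no arrays overlapped. No day 10 blood array had Eno1 well above background either. Its log2 Cy5 value after loess, taken as for Hk2, averaged 7.67 in the TIC fraction and 6.68 in day 10 blood. The ratio fit gave 0.99 ± 0.14 (adjusted p = 0.000305), with only an upper bound for day 10 blood. The difference from day 0 blood was 0.92 ± 0.14 (adjusted p = 0.000515). This probe also lists an accession of Eno1b, and the pair cannot be told apart with it.

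The Ldha probe used lies at chr7:46723561-46723620 on the plus strand (mm8). Ldha had log2 ratios of 1.47, 2.62 and 2.32 in the TIC fraction, 0.02, -0.03 and -0.35 in day 10 blood and -0.04, 0.46 and 0.53 in day 0 blood. The TIC arrays were all above both bloods. The difference was 2.25 ± 0.29 from day 10 blood (4.77-fold, adjusted p = 0.000171) and 1.82 ± 0.29 from day 0 blood (3.53-fold, adjusted p = 0.000686). A second Ldha probe had 1.47, 1.65 and 1.65 in the TIC fraction, -0.25, -0.33 and -0.23 in day 10 blood and -0.07, 0.54 and -0.21 in day 0 blood. Its differences of 1.86 and 1.51 were smaller and had the same direction.

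**Figure D3:**
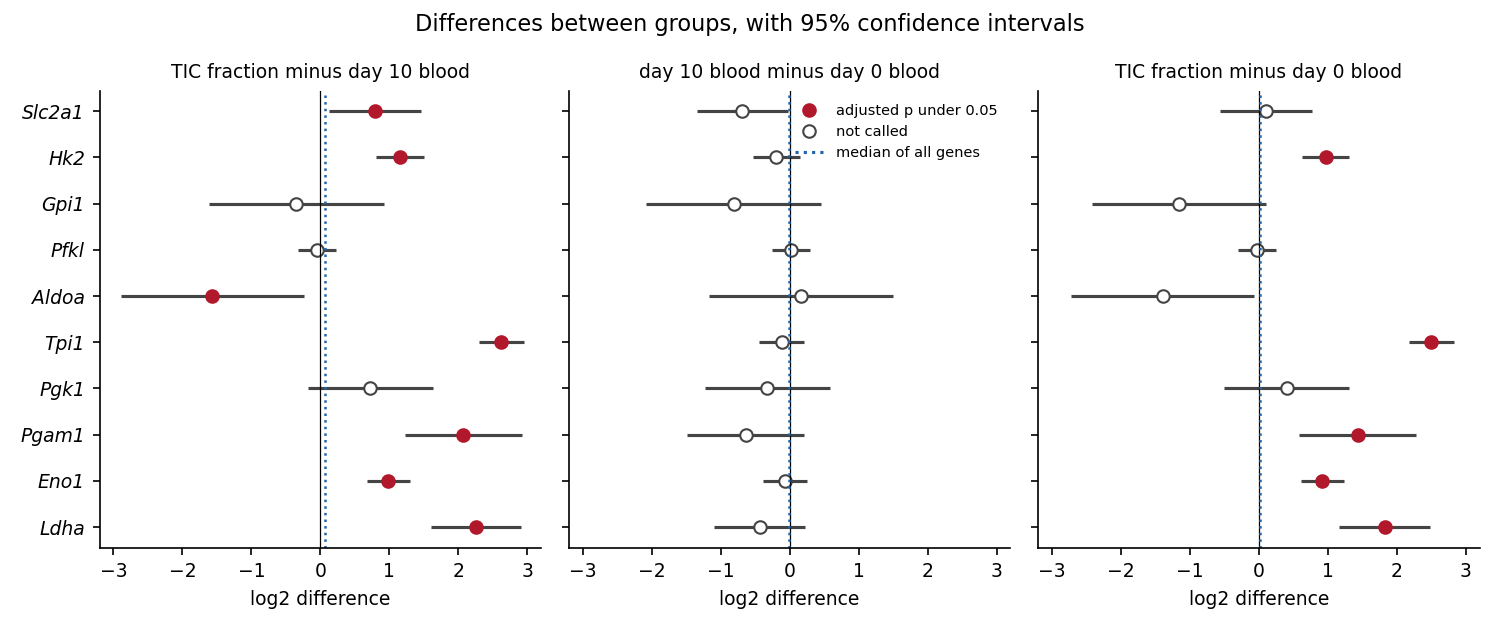
Log2 differences of the 10 genes in the 3 comparisons, with 95% confidence intervals of the limma fit (filled points, adjusted p under 0.05; dotted line, median of all genes tested). Tpi1 has the largest difference in both TIC comparisons, Gpi1 and Aldoa have the widest intervals, and no gene is called between the bloods.

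Among the TIC arrays, mouse 833 had the highest or the lowest value for each of the 10 genes. Slc2a1, Hk2, Gpi1, Aldoa, Pgk1, Pgam1 and Ldha had their highest TIC value in mouse 833. Pfkl, Tpi1 and Eno1 had their lowest TIC value there, for Tpi1 by a small gap (2.0 against 2.07 in mouse 832). Over all genes the TIC arrays of mice 832 and 834 correlated at 0.99 and parted from mouse 833. The share of all genes with such an outer value was not counted, so it is no trait of these 10. Without that array, 5 genes were higher and 2 lower than day 10 blood, and the same counts held against day 0 blood. Of all genes, 39.8% were higher and 37% lower than day 10 blood in that fit, and 37.8% were higher and 37.9% lower than day 0 blood. The genes higher in both were Hk2 (with the limit of the filter given above), Tpi1, Pgam1, Eno1 and Ldha. Those lower in both were Gpi1 and Aldoa. The direction of Gpi1 and Aldoa therefore differs between mouse 833 and the other mice in the loess-normalized ratios.

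The TIC fraction was also set against day 0 blood, which shares its TIC arrays with the comparison above. Here 5 genes rose (Hk2, Tpi1, Pgam1, Eno1 and Ldha), none fell and 5 did not pass. Hk2 is counted with the same limit of the filter as above. Of all genes, 65.4% were called, 31.7% higher and 33.6% lower. The median difference was 0.66 for the 10 genes and 0.01 for all. TIC arrays lay above day 0 blood arrays without overlap for these 5 genes, as for 32.7% of all genes, and none of the 10 lay wholly below, against 34.9% of all genes.

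The arrays were on 3 slides by the barcodes in the names of the scanner tables, numbered here in barcode order. No slide held both TIC and day 10 blood arrays. With slide as a block, where the comparison runs through day 0 blood, Tpi1 (2.24), Pgam1 (2.63), Eno1 (0.91) and Ldha (2.91) stayed called higher in the TIC fraction than in day 10 blood, as were 10.5% of all genes. Hk2 differed by 0.97 (adjusted p = 0.055), Slc2a1 by 0.41 (adjusted p = 0.522) and Aldoa by -0.59 (adjusted p = 0.682). Slide 2 held the TIC arrays of mice 833 and 834 and the day 0 blood arrays of mice 832 and 833. Within it, 7.19% of all genes were called higher in the TIC fraction than in day 0 blood, and 3 of the 10 were: Tpi1 (2.39, adjusted p = 0.011), Ldha (2.26, adjusted p = 0.0155) and Eno1 (0.80, adjusted p = 0.047). Pgam1 (1.87, adjusted p = 0.0543) and Hk2 (0.92, adjusted p = 0.0691) missed the threshold there.

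Between the bloods no gene of the 10 was called, and none of the 14262 (0%). With limma, 2106 genes (14.8%) passed 0.05 before adjustment, and Slc2a1 was the one of the 10 among them (adjusted p = 0.32). In day 10 blood 8 of the 10 genes lay lower than in day 0 blood on average, with a median difference of -0.26 against -0.01 over all genes. Slc2a1 (-0.69 ± 0.29), Gpi1 (-0.81 ± 0.55), Pgk1 (-0.32 ± 0.40) and Pgam1 (-0.64 ± 0.37) lay below all day 0 arrays on all 3 day 10 arrays, as did 17.2% of all genes. None of the 10 lay wholly above, against 15.7% of all genes. These SEs use the spread of all 9 arrays, TIC arrays included. With only the bloods in the fit, 748 genes passed, among them Gpi1 (adjusted p = 0.0431) and Pgam1 (adjusted p = 0.033), both lower in day 10 blood, as were 2.61% of all genes.

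Slide 3 held all day 10 blood arrays and the day 0 blood array of mouse 834. Within it Gpi1 differed by -0.98 (adjusted p = 0.0223) and Pgam1 by -0.76 (adjusted p = 0.0308), while 573 genes were called and 2.57% of all genes were called lower. The day 0 arm there is a lone array, assumed to vary like the others and shared with the fit above, so these values are no separate repeat. With slide as a block none of the 10 was called. Erythroid markers lay higher in day 10 blood for 9 of 9 genes (median 1.54), and B cell markers had a median of -1.32, with no marker called. Their part in the glycolytic genes' values was not tested.

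The sign of Aldoa and Gpi1 in the TIC fraction depended on how the arrays were scaled. With each array centred on its median in place of loess, all 10 genes were called higher in the TIC fraction than in day 10 blood, by 1.29 (Pfkl) to 7.21 (Tpi1), as were 72.2% of all genes. The median of all genes was then 1.39, and 95.8% of called genes were higher rather than 50.9%. Relative to that median, 9 of the 10 genes were higher, Aldoa by 2.96 and Gpi1 by 3.09, and Pfkl differed by -0.10. With the authors' deposited log ratio the median of all genes was 0.85, and 63.2% of called genes were higher. Relative to it, Tpi1 (1.95), Pgam1 (1.49), Eno1 (2.36), Hk2 (2.05), Ldha (1.43) and Pfkl (0.40) were above, and Aldoa (-1.83), Gpi1 (-1.22), Slc2a1 (-0.34) and Pgk1 (-0.21) below. Pfkl was called higher there (1.24, adjusted p = 0.0242), but it passed the filter only through the TIC fraction. Slc2a1 lost its call there (adjusted p = 0.276). In the Cy5 value taken after loess, Aldoa differed by -0.37 and Gpi1 by 0.35, neither called. Hk2, Tpi1, Pgam1, Eno1 and Ldha exceeded the median of all genes under all 4 scalings. Of these, the Cy5 value is not independent of loess.

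**Figure D4:**
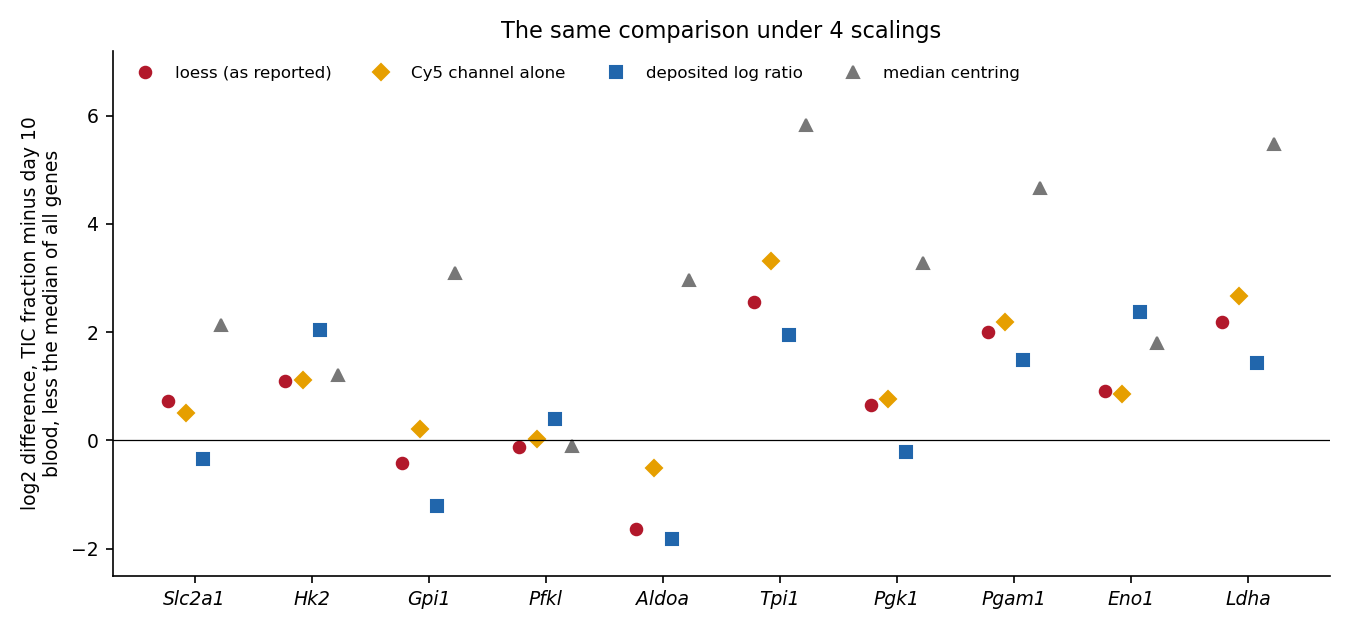
Log2 difference between the TIC fraction and day 10 blood for each gene, less the median of all genes, under 4 scalings. These are loess, the Cy5 value taken after loess (drawn as Cy5 channel alone), the deposited log ratio and median centring. Hk2, Tpi1, Pgam1, Eno1 and Ldha are above 0 under all 4, while Gpi1 and Aldoa lie below 0 under loess and the deposited ratio and near 3 under median centring. Hk2 passed the filter only through the TIC fraction.

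Several steps have isoforms that differ in tissue use. On the list of 22 other glycolytic genes, 21 were measured, and 5 were higher and 10 lower in the TIC fraction than in day 10 blood (median -0.27), while with median centring 14 were higher and 1 lower. Of all genes, 34.4% were higher and 33.2% lower by loess, and 72.2% were higher with median centring. Slc2a3 (GLUT3), the transporter of neurons, platelets and leukocytes, had -4.19, -2.76 and -3.79 in the TIC fraction, 0.78, 0.60 and -0.29 in day 10 blood and 1.0, 0.45 and 0.37 in day 0 blood. It was lower than in day 10 blood by loess (-3.94 ± 0.40, adjusted p = 4.27e-05) and at 0.20 with median centring, under the median of all genes. Hk1, the hexokinase of red cells and brain, had -3.2, -1.5 and -3.04 in the TIC fraction against 0.18, 0.16 and -0.17 in day 10 blood. Its difference was -2.64 ± 0.39 by loess (adjusted p = 0.000434) and 1.76 with median centring. So Slc2a1 and Hk2 had higher ratios and Slc2a3 and Hk1 lower ones by loess, while under median centring Hk2 (2.59) and Hk1 (1.76) were both above the median of all genes.

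Bpgm, which makes the haemoglobin regulator 2,3-bisphosphoglycerate in red cells, had -9.84, -8.24 and -9.21 in the TIC fraction, -0.18, -0.11 and 0.57 in day 10 blood and -1.54, -2.28 and -0.66 in day 0 blood. Its difference from day 10 blood was -9.19 ± 0.49 (adjusted p = 1.9e-06), and it stayed negative with median centring (-2.19). Pfkm, the muscle phosphofructokinase, was above background on all 3 TIC arrays and no blood array, so it passed the filter only through the TIC fraction. Its difference from day 10 blood was 1.02 ± 0.10, with only an upper bound for the blood level. Eno3, the muscle enolase, rose by 0.96 ± 0.16 (adjusted p = 0.000878). Ldhb, the heart form of lactate dehydrogenase, had a lower ratio by loess (-0.90) and 0.52 with median centring, under the median of all genes. Ldhb was too dim to measure in day 10 blood. The probe named Gapdh was above background on no blood array and did not pass (adjusted p = 0.431), and Pkm, the pyruvate kinase of most tissues, did not either (0.35 ± 0.39).

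**Figure D5:**
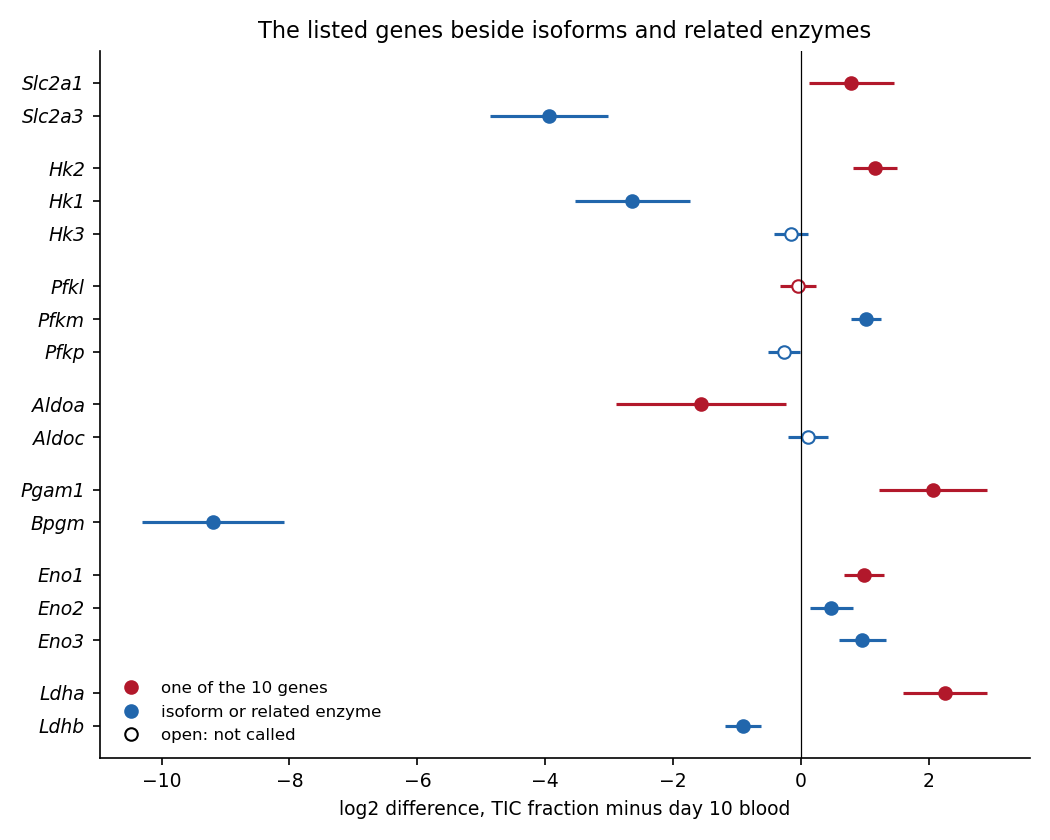
Log2 difference between the TIC fraction and day 10 blood (loess) for the listed genes and some of their isoforms or related enzymes, with 95% confidence intervals (filled, adjusted p under 0.05). Ldha, Hk2 and Slc2a1 lie right of 0, and Ldhb, Hk1 and Slc2a3 left of it.

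Of 7 pentose phosphate genes 2 were higher and 2 lower in the TIC fraction than in day 10 blood by loess, and all 7 were higher with median centring. The shares over all genes were 34.4% higher and 33.2% lower by loess, and 72.2% higher with median centring. Taldo1, transaldolase, was lower by loess (-4.60 ± 0.27, adjusted p = 2.51e-06) and G6pdx, which opens the pathway, was lower too (-1.64 ± 0.28, adjusted p = 0.000917), but both turned positive with median centring (2.24 and 2.20). Rpe (1.25 ± 0.27) and Pgls (0.77 ± 0.29) were called higher, but no day 10 blood array had either above background. Rpe was above background on no blood array at all and passed the filter only through the TIC fraction. Both measured genes of gluconeogenesis, of 6 listed, were lower by loess, Pcx by -2.24 ± 0.21 (adjusted p = 2.76e-05) and Pck2 by -0.88 ± 0.26 (adjusted p = 0.0142), and both turned positive with median centring (1.92 and 3.22).

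Of 11 genes that carry pyruvate into mitochondria or govern its oxidation, 6 rose and 2 fell in the TIC fraction against day 10 blood by loess (median 0.69), and 9 rose and none fell with median centring. Over all genes, 34.4% rose and 33.2% fell by loess, and 72.2% rose with median centring. All 4 measured subunits of pyruvate dehydrogenase rose: Pdhb (1.77 ± 0.25), Dlat (1.5 ± 0.21), Dld (1.49 ± 0.24) and Pdha1 (0.88 ± 0.14), with adjusted p-values of 0.000283 to 0.000735. Dlat was above background on no day 10 blood array and 2 day 0 blood arrays, so it passed the filter only through the TIC fraction and its day 10 level has only an upper bound. Relative to the median of all genes they were also higher with median centring (1.96 to 3.87) and in the deposited log ratio (0.96 to 2.20).

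Among 15 other hypoxia-inducible genes, 6 rose and 4 fell in the TIC fraction against day 10 blood by loess, while with median centring 10 were higher and 1 lower. These counts lie near the shares over all genes, 34.4% higher and 33.2% lower by loess and 72.2% higher with median centring. Ddit4, an inhibitor of mTORC1 signalling, rose by 1.41 ± 0.12 (adjusted p = 1.6e-05). Mxi1 (-4.21 ± 0.18), Bnip3l (-9.91 ± 0.53) and Car9 (-2.71 ± 0.22) fell by loess, with adjusted p-values of 9.15e-07, 2.02e-06 and 1.1e-05. With median centring Car9 was at 0.41 and Mxi1 at -0.09, both under the median of all genes (1.39). Bnip3l, which clears mitochondria from maturing red cells, moved with the erythroid markers, and their part in it was not tested. Between the bloods no gene of these 5 pathway lists was called, nor any of the 14262 tested. Rpia (-0.99, adjusted p = 0.114) and Mpc2 (1.79, adjusted p = 0.106) had the smallest adjusted p-values there.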

How the data were processed

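The authors deposited Agilent scanner tables of 9 2-colour arrays with spot and background intensity per channel and a log10 ratio (Cy5 to Cy3). The file headers name Feature Extraction 10.5.1.1 and the submitters' processing notes 9.1.3.1. The series' value table held the same log10 ratios. Here, spots that the files flag as outliers or as having non-uniform local background were left out, background was corrected by normexp (offset 50), and log2 ratios were normalized by loess within arrays. A probe was kept if its Cy5 signal passed the files' background flag on 3 or more arrays, and the brightest probe stood for a gene. Names came from RefSeq (GRCm38.p6). One limma fit (limma 3.58.1, R 4.3.3) covered all 9 arrays, with 6 residual degrees of freedom. The limma step was also run on simulated log ratios, which did not cover background correction, loess or the filter. The dyes were not swapped, so a dye bias that differs between arrays stays in the differences. The number of arrays limits the precision.

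All 10 genes were named in pathway order. From each other pathway list up to 4 genes with the smallest p per comparison were named, and further isoforms were chosen after their values were seen. Some items of these lists are not reported here. The genes and lists were chosen with earlier results of these data known. The mouse numbers pair the samples, since each mouse gave all 3. Deviations from the group means correlated at 0.19 to 0.35 within mice between the bloods, -0.06 to 0.06 between the TIC fraction and day 10 blood, and -0.06 to -0.01 between the TIC fraction and day 0 blood. The normalization, the filter, the probe choice, the mouse and the slide as blocks, the groups in the fit and each left-out array were varied. An offset of 10 was added after seeing the data.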

Additional observations from a re-analysis of the deposited data

How the results depend on the processing

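Log2 differences are in the order of the comparison named. Cy5 alone stands for the Cy5 value taken after loess, which is not independent of the loess ratio. Hk2, Tpi1, Pgam1, Eno1 and Ldha stayed above 0 in both TIC comparisons under every alternative run on them (Hk2 and Eno1 were not tested with probes above background on all 9 arrays), and Tpi1, Pgam1, Eno1 and Ldha stayed called against day 10 blood. Hk2 passed the filter only through the TIC fraction, so its sign is no support of its own. For TIC against day 10 blood, 2968 genes were called with probes above background on all 9 arrays and 4276 with slide as a block, which called 4 of the 10 genes. Of those 2968 genes 23.4% were higher, and of the 7 of the 10 genes tested there 4 were higher and 1 lower. Gpi1 reversed to 4.47 with median centring, 0.35 in Cy5 alone and 0.41 with the slide block, and ran from -1.11 to 0.15 with 1 array left out. Pfkl reversed to 1.24 (deposited log ratio), 1.29 (median centring), 0.18 (Cy5 alone), 0.029 (slide block) and 0.080 (offset 10), and ran from -0.12 to 0.043. Aldoa reversed to 4.35 with median centring. For day 10 against day 0 blood, 757 genes were called with the deposited log ratio, 147 with all 9 arrays above background, 32 with mouse as a replicate block, 748 with only the bloods (2 of the 10 genes), 191 with an offset of 10, and 0 to 18 with 1 array left out. There Pfkl reversed to -0.24 (deposited), -0.073 (median centring), -0.065 (offset 10) and -0.081 (slide block and slide 3), running from -0.054 to 0.076. Aldoa reversed to -0.28 (deposited), -1.09 (median centring) and -0.17 (slide block and slide 3), and Tpi1 to 0.15 in both slide fits. For TIC against day 0 blood, 2922 genes were called with all 9 arrays above background, and median centring called 10 of the 10 genes. Slc2a1 reversed to -0.12 (deposited) and -0.33 (offset 10), running from -0.22 to 0.31. Median centring gave Gpi1 2.74 and Aldoa 3.26. Pfkl reversed to 0.998 (deposited), 0.000598 (all spots), 1.21 (median centring), 0.19 (Cy5 alone) and 0.015 (offset 10), running from -0.10 to 0.059, and Pgk1 ran from -0.13 to 0.78. With 1 array left out, 8329 to 10953 genes and 5 to 7 of the 10 were called against day 10 blood, and 8066 to 10801 and 5 to 7 against day 0 blood. Among the 10 genes the replicate block by mouse changed no call but that of Aldoa against day 10 blood (adjusted p 0.0572). The causes were not tested. Blood arrays were dim, so genes near background there have bounds only.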
